A study of Mus musculus with 20 samples.

Results

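The genes described here are 10 members of the TGF-beta pathway, measured in microglia of the APP-KI mouse with and without the complement receptor C3aR. They are the ligand gene Tgfb1 and Nrros, whose product holds latent TGF-beta on the microglial surface, the receptor genes Tgfbr1 and Tgfbr2, the signal transducers Smad2, Smad3 and Smad4, and the inhibitors Smad7, Ski and Skil. They were chosen by symbol as genes of this pathway, each had a single entry among the 21326 entries listed per library, and all 10 passed the filter on low values in every comparison. RNA was sequenced in bulk from 20 libraries of brain microglia of mice aged 9 months on the C57BL/6 strain, in 6 groups. C3aR+ WT and C3aR+ APP-KI (3 libraries each) held CD45mid CD11b+ cells sorted on the Td-tomato signal of a C3aR reporter line, in which C3ar1 is also floxed. WT, C3aRKO and APP-KI (3 libraries each) and APP-KI;C3aRKO (5 libraries) held CD45mid CD11b+ microglia that were not selected on C3aR. APP-KI mice carry, in the mouse App gene, a humanized Aβ sequence with the Swedish, Iberian and Arctic mutations, and develop Aβ plaques; C3aRKO mice lack C3ar1 in all cells. The labels do not say how many mice a library came from, so the p-values measure the spread between these libraries, and in bulk RNA fewer cells of a type and less RNA per cell cannot be told apart.

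TGF-beta is made as a latent complex and, once released, binds the receptor encoded by Tgfbr2, which recruits and phosphorylates the receptor encoded by Tgfbr1. That kinase phosphorylates SMAD2 and SMAD3, which enter the nucleus together with SMAD4, while SMAD7 blocks the receptor and SKI and SKIL repress transcription at SMAD sites. In the brain, microglia depend on this signal for their resting expression program, and microglia in which it is removed lose genes such as P2ry12, Tmem119 and Sall1.

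The deposited values are named FPKM but were not divided by gene length. Each is a gene's read count over the upper quartile of the read counts of its library, and all were multiplied here by a constant shared by the 20 libraries, which puts them near CPM, reads scaled to a fixed library total. These are called scaled values below. The C3aR+ libraries held 13939559 to 30388941 reads and the others 42239056 to 76608464. Every member had at least 797 reads in every library. A set of 4 libraries stood apart, with reads on 58.1% to 62.1% of the genes listed. They were APP-KI replicate 4, C3aRKO replicates 1 and 2 and APP-KI;C3aRKO replicate 1, and each comparison that includes them is also given without these 4. APP-KI replicate 5 had reads on 99.5% of genes and the other 15 libraries on 69.8% to 81.8%. C3ar1 lay at 39.8 to 80.2 in the knockout libraries, at 275 to 339 in WT and at 165 to 387 in APP-KI, in scaled values. In C3aR+ WT, however, it lay at 37.5 to 81.0, the level of the knockouts, against 201 to 382 in C3aR+ APP-KI. The label C3aR+ of the WT libraries thus rests on the reporter and not on the C3ar1 transcript. All 8 microglial markers had reads in every library.

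On GRCm38 (mm10), Tgfbr1 lies at chr4:47353222-47414931 on the plus strand and Tgfbr2 at chr9:116084293-116175360 on the minus strand. Smad3 lies at chr9:63646767-63757994 and Ski at chr4:155154075-155222592, both on the minus strand, Tgfb1 at chr7:25687002-25705077 on the plus strand, Nrros at chr16:32142785-32165594 on the minus strand and Skil at chr3:31095058-31122577 on the plus strand. All 10 members are protein-coding genes of GENCODE M21, and the values are sums over a gene that say nothing of single exons. The 250 bases before the start of both receptor genes (RefSeq, GRCm38.p6, 5′ to 3′ on the gene's own strand) are shown because these genes lay in opposite directions in the same libraries, as described further on. Capitals mark GGGCGG, the core of a GC box, in Tgfbr1 and GAGGAA, a core of binding sites of the myeloid factor PU.1, in Tgfbr2. The first sequence lies at chr4:47352972-47353221 and the second at chr9:116175364-116175613.
Tgfbr1: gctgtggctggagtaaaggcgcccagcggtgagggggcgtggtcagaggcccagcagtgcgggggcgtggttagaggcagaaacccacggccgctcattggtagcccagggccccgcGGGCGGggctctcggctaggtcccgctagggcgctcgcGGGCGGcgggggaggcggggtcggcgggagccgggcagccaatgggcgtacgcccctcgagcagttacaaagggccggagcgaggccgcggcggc
Tgfbr2: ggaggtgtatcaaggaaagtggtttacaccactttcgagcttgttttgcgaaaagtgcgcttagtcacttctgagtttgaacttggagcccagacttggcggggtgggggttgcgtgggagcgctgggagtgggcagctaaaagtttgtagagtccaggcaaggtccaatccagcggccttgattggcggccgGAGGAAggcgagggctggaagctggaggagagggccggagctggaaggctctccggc

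The Tgfbr1 sequence had a GC content of 74.8% and held GGGCGG in 2 places and neither GAGGAA nor CAGAC, the SMAD box, on either strand. The Tgfbr2 sequence had a GC content of 58.4% and held GAGGAA in 1 place, CAGAC in 1 place and no GGGCGG. Among 32851 promoters of the same length, whose median GC content was 52.4%, 32.7% held GGGCGG, 23.3% GAGGAA and 42.2% CAGAC on either strand, so that none of these letters is rare. Of the 10 members, 6 matched the promoter table. Tgfb1, Ski and Smad3 held GGGCGG in 5, 5 and 2 places, and Nrros held none. A match is a description of letters and not of binding.

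The 10 genes kept nearly the same order of level in all 6 groups. Per kb of exon, Tgfbr1 was the most abundant throughout, at a scaled value of 370.2 ± 31.2 in WT (SD, n = 3) and 249 ± 30.1 in C3aR+ APP-KI (SD, n = 3). Smad4 was the ninth and Smad2 the last in each group, with group means per kb of 16.2 to 22.2 and 6.88 to 10.3. The places below Tgfbr1 went with the knock-in. Ski, the corepressor, took the second place and Tgfbr2 the third in WT, C3aR+ WT and C3aRKO, and they changed places in APP-KI, C3aR+ APP-KI and APP-KI;C3aRKO. In APP-KI and in APP-KI;C3aRKO the ranges of Tgfbr2 and Ski overlapped, so that this pair cannot be ranked there. In C3aR+ APP-KI they did not, with Tgfbr2 at 183 ± 39.1 and Ski at 140.1 ± 2.31 per kb (SD, n = 3 each).

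**Figure D1:**
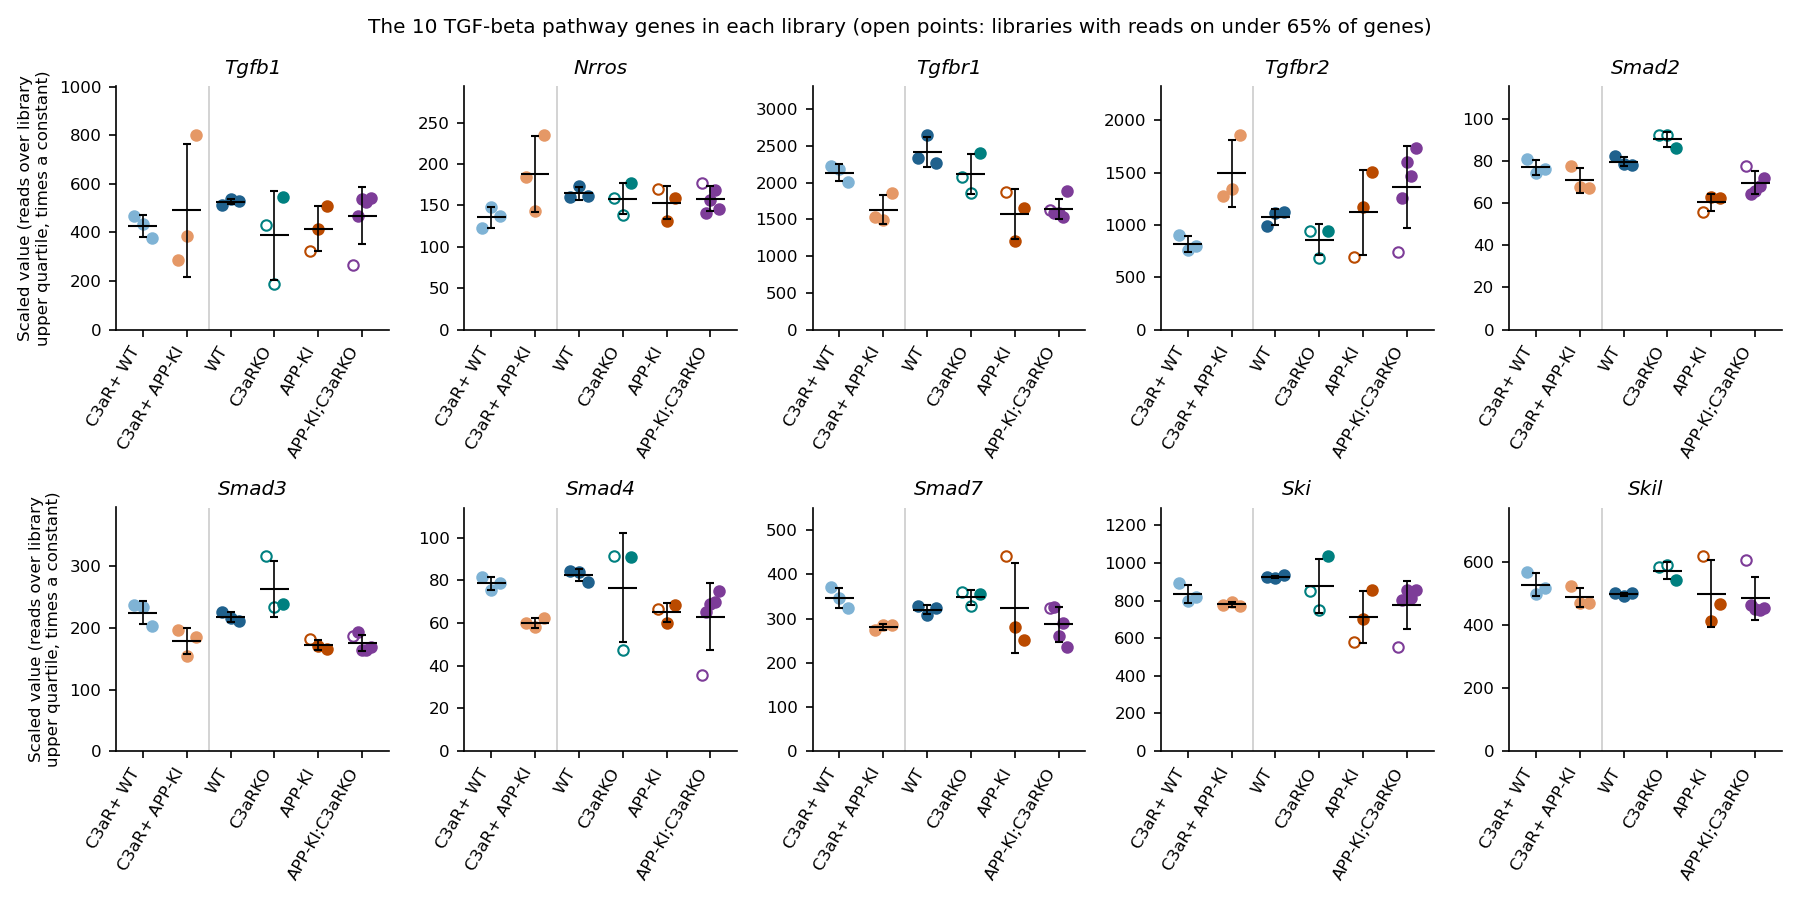
Scaled value of each of the 10 genes in each of the 20 libraries, 1 panel per gene on a linear axis from 0, with the 6 groups along the horizontal axis, points for libraries, open points for the 4 libraries with reads on under 65% of genes horizontal bars for group means and vertical bars for ± SD. Tgfbr1 lies lower and Tgfbr2 higher in C3aR+ APP-KI than in C3aR+ WT, and the open points stand apart from their group for several genes.

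The first question is how the pathway differed between C3aR+ microglia of APP-KI and of WT mice. Tgfbr2, the receptor that binds the ligand, rose 1.80-fold and was the member that passed the test. Tgfbr1, Smad3, Smad4, Smad7 and Ski were lower in every C3aR+ APP-KI library than in any C3aR+ WT library without passing it. Tgfb1 and Nrros, the ligand and its anchor, and Smad2 and Skil, whose groups overlapped, did not pass either. The test was limma on log2(scaled value + 1), with Benjamini-Hochberg adjustment over 12314 genes and a call at an adjusted p under 0.05. It called 1 of the 10 members higher and 0 lower, against 13% of all genes higher and 9.7% lower, so that the share of members called did not exceed that of all genes.

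Tgfbr2 had scaled values of 906, 760.5 and 795 in the C3aR+ WT libraries and of 1280.4, 1341 and 1863 in the C3aR+ APP-KI libraries. The lowest library with the knock-in lay above the highest without it. The log2 fold change was 0.85 (SE 0.17, 95% interval 0.48 to 1.22, limma adjusted p = 0.00604). It passed under every alternative tried, between 0.68 and 1.01.

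Tgfbr1, the kinase that passes the signal to the SMADs, had scaled values of 2222, 2179 and 2008 in C3aR+ WT and of 1537, 1497 and 1856 in C3aR+ APP-KI. The groups did not overlap, and all 3 knock-in libraries were lower. Its log2 fold change was −0.40 (95% interval −0.73 to −0.06), which missed the threshold at a limma adjusted p of 0.0831. Without C3aR+ APP-KI replicate 3, the library with the highest Tgfbr1 of the 3, it passed at −0.49 (limma adjusted p = 0.0227).

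Smad4, the partner shared by all receptor-activated SMADs, lay at 81.4, 75.5 and 78.8 in C3aR+ WT and at 59.8, 58.0 and 62.5 in C3aR+ APP-KI. Smad4 lies on chromosome 18, like Smad2 and Smad7, and overlaps an annotated processed pseudogene, AC132418.2, on the opposite strand. The overlap was looked for over the whole gene span and not over its exons. As no strand setting is given in the sources used here either, whether reads of the pseudogene entered Smad4 is not known. The groups were apart, and the log2 fold change of −0.38 (95% interval −0.66 to −0.10) had a limma adjusted p of 0.0536. It passed in 2 of 13 alternatives, when no filter on low values was used (limma adjusted p = 0.0343) and with a filter at a mean of 5 (limma adjusted p = 0.0466). Over the 13 it ran from −0.41 to −0.24, with adjusted p-values up to 0.282. Smad3 lay at 237, 234 and 203 and at 196, 155 and 185 in C3aR+ WT and C3aR+ APP-KI, also apart, with a log2 fold change of −0.33 (limma adjusted p = 0.0872). Smad7, the inhibitor induced by the pathway itself, lay at 324 to 371 and at 274 to 286, a log2 fold change of −0.30 (limma adjusted p = 0.067). Over the alternatives Smad3 ran from −0.40 to −0.19 and Smad7 from −0.35 to −0.15, and neither passed in any. Smad2 overlapped between the groups, at 74.1 to 80.8 and 67.0 to 77.9.

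Of the remaining genes, Nrros lay at 123 to 148 in C3aR+ WT and 143 to 235 in C3aR+ APP-KI, a log2 fold change of 0.44 (95% interval 0.05 to 0.83, limma adjusted p = 0.0942). The ranges overlapped. It passed in 2 of 13 alternatives, by DESeq2 on the recovered reads, at 0.61 (DESeq2 adjusted p = 0.021), and without C3aR+ APP-KI replicate 2. Tgfb1 spread more within C3aR+ APP-KI than between the groups, with 378 to 469 in C3aR+ WT and 286, 386 and 802 in C3aR+ APP-KI. Ski lay at 799 to 891 in C3aR+ WT and 769 to 794 in C3aR+ APP-KI, apart by a narrow margin, and Skil at 498 to 569.9 and 471 to 523. They had log2 fold changes of −0.10 and −0.11 that did not pass (limma adjusted p = 0.527 and 0.476). In all, 1 member was higher and 5 lower in every knock-in library, against 17.8% and 25.7% of all genes.

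The scaling matters for the lower genes. Over all genes in this comparison the median difference was −0.17 on the log2 scale with the authors' scaling and −0.03 with median ratio scaling. Of the calls over all genes 57.3% were higher in the first case and 75.3% in the second. Under median ratio scaling 4 of the 10 members lay below 0 in place of 7, Smad2, Ski and Skil having turned to 0.02, 0.04 and 0.03. Tgfbr1 then stood at −0.25 (limma adjusted p = 0.338) and Tgfbr2 at 0.99 (limma adjusted p = 0.0044).

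Markers of other cells and of the microglia themselves moved with the knock-in in these libraries. The 8 microglial markers summed to 22026 to 24286 in C3aR+ WT and 15976 to 19383 in C3aR+ APP-KI, and the 7 markers of border macrophages to 483 to 712 and 184 to 413, with none at 0. The 4 endothelial markers summed to 33.8 to 78.0 and 165 to 321. Flt1 carried that rise, at 10.7 to 22.1 and 155 to 313, while Pecam1 was lower and Cldn5 stayed at or under 6.77. The C3aR+ APP-KI libraries also held 13939559 to 23086997 reads against 19962604 to 30388941 in C3aR+ WT. The part of these differences in the values of the members was not tested.

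The same genotypes were compared in microglia not selected on C3aR, in a fit over the 14 libraries of 4 genotypes with the library number series as a term. With all libraries, no member passed, while 9 of the 10 had a log2 fold change below 0. Without the 4 libraries that stood apart, 5 members passed: Tgfbr1, Smad2, Smad3 and Smad4 fell and Tgfbr2 rose. The limma test called 0 of 10 members with all libraries, against 4.14% of all genes (2.22% higher and 1.93% lower), and 3 members, all lower, had an unadjusted p under 0.05, against 6.49% of genes lower. DESeq2 called 1 member, Tgfbr1. With the 4 libraries left out the count was 1 higher and 4 lower, against 13.2% and 14.7% of all genes. That choice of libraries was made after the values were seen, and leaves 2 APP-KI libraries against 3 WT libraries. Of these 2, replicate 5 had reads on 99.5% of genes, the highest share of all libraries. It also had the highest sums of neuronal markers, 11.98, and of T and NK cell markers, 11.96. The part of this library in the calls was not tested.

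Tgfbr1 had scaled values of 2340.4, 2650.2 and 2266 in WT and of 1873, 1206 and 1651 in APP-KI. Every APP-KI library was lower than every WT library, those with few genes detected included. The log2 fold change was −0.60 (SE 0.21, 95% interval −1.04 to −0.16, limma adjusted p = 0.163), and without the 4 libraries −0.75 (95% interval −1.06 to −0.43, limma adjusted p = 0.00416). Within each of the library number series the difference had the same sign on the log2 scale. It was −0.64 in the first, with 2 APP-KI libraries and 1 of WT, and −0.57 in the other, with 1 and 2. All 4 libraries with few genes detected belong to the first of these series.

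Tgfbr2 had scaled values of 991, 1111 and 1128 in WT and of 691, 1168 and 1504 in APP-KI. The 691 belongs to replicate 4, with reads on 62.1% of genes, and the other two lay above all WT libraries. With it the log2 fold change was 0.16 (95% interval −0.38 to 0.71, limma adjusted p = 0.954). It was 0.35 with the 4 libraries left out (95% interval 0.13 to 0.57, limma adjusted p = 0.0263). The within-series differences were −0.14 in the series that holds replicate 4 and 0.43 in the other.

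Smad3 had scaled values of 226, 215 and 211 in WT and of 182, 169.9 and 166 in APP-KI. The groups were apart in all libraries. Its log2 fold change was −0.38 (95% interval −0.66 to −0.10, limma adjusted p = 0.164), −0.36 in both library series, and −0.39 without the 4 libraries (limma adjusted p = 0.00237). Smad2, the other SMAD that the receptor phosphorylates, lay at 82.4, 78.8 and 78.1 in WT and at 55.7, 62.8 and 62.6 in APP-KI. It too was apart, with −0.41 in all libraries (limma adjusted p = 0.16) and −0.34 without the 4 (limma adjusted p = 0.00627).

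Smad4 lay at 79.3 to 84.1 in WT and 60.1 to 68.3 in APP-KI, with −0.23 in all libraries and −0.35 without the 4 (limma adjusted p = 0.896 and 0.00906). Tgfb1 and Ski were also lower in each APP-KI library than in any WT library, at 324 to 509 against 514 to 537 for Tgfb1 and at 579 to 855 against 921 to 934 for Ski. Neither passed with or without the 4 libraries (limma adjusted p = 0.122 and 0.0641 without them). Smad7, Skil and Nrros overlapped between the groups in all libraries, and did not pass without the 4 (limma adjusted p = 0.0535, 0.104 and 0.165). Over all libraries 6 members were lower in each APP-KI library and 0 higher, against 16.4% and 12.8% of all genes.

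**Figure D2:**
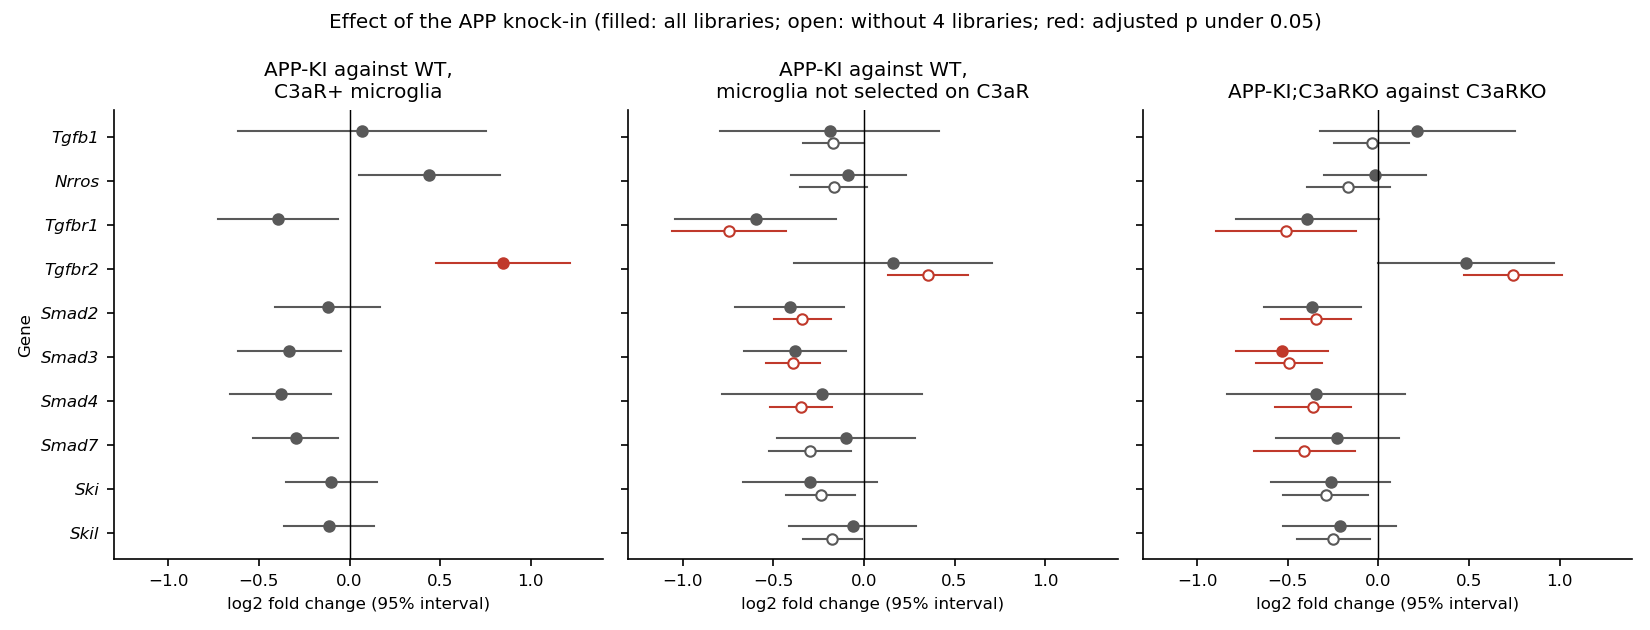
Log2 fold change of each gene with its 95% interval (horizontal axis) in the 3 comparisons of mice with and without the knock-in, filled for all libraries, open without the 4 libraries with reads on under 65% of genes, and red at a limma adjusted p under 0.05. Tgfbr2 lies right of 0 and Tgfbr1 and the SMADs left of it in each panel, though Smad2 turns to 0.02 in C3aR+ microglia under median ratio scaling, with Smad3 the only member in red with all libraries in the comparison on the C3aRKO background.

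In WT and APP-KI libraries the microglial markers summed to 25996 to 28301 and 10023 to 21867, and the border macrophage markers to 450.5 to 1203 and 269 to 290.2, with at most 1 of 7 at 0. The endothelial markers summed to 41.3 to 50.01 and 194 to 253, mostly through Flt1, at 9.9 to 11.9 and 166 to 243. Cldn5, at 0.295 to 1.03 and 1.18 to 10.3, and Slco1a4, at 1.14 to 1.27 and 1.79 to 7.94, were also higher in APP-KI. Pecam1 was lower, at 29.9 to 37.0 and 6.92 to 20.4. APP-KI replicate 4 had the microglial sum of 10023, and replicates 5 and 6 had 17131 and 21867. Their part in the values of the members was not tested.

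The knock-in was also compared on the background without C3ar1, APP-KI;C3aRKO against C3aRKO, and these groups share no library with the comparison of APP-KI and WT. Smad3 fell and was the single member to pass with all libraries. When the 4 libraries were left out, Tgfbr1, Smad2, Smad3, Smad4 and Smad7 fell and Tgfbr2 rose, but C3aRKO then holds 1 library, which is assumed to vary like the other groups. The limma test called 0 members higher and 1 lower with all libraries, against 3.96% and 2.97% of all genes, and 1 higher and 5 lower without the 4, against 13.2% and 18.2%. The estimate of the spread is that of all 4 genotypes.

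Smad3 lay at 316, 235 and 238 in C3aRKO and at 186, 194, 164, 164 and 169.6 in APP-KI;C3aRKO. All 5 libraries with the knock-in were lower than all 3 without. The log2 fold change was −0.53 (SE 0.12, 95% interval −0.78 to −0.28, limma adjusted p = 0.0123), and −0.52 within each library series. The first series held 2 libraries of each group, and both of its C3aRKO libraries had few genes detected. The other held 3 APP-KI;C3aRKO libraries and 1 of C3aRKO. The value was −0.50 without the 4 libraries (limma adjusted p = 0.00203).

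Tgfbr2 lay at 945, 687 and 946 in C3aRKO and at 739, 1256, 1607, 1469 and 1737 in APP-KI;C3aRKO. The 4 libraries other than replicate 1 lay above all of C3aRKO, and replicate 1 lay among them. With all libraries the log2 fold change was 0.48 (limma adjusted p = 0.248), and without replicate 1 alone it was 0.67 (limma adjusted p = 0.0475). The 4 libraries left out, it was 0.74 (95% interval 0.47 to 1.02, limma adjusted p = 0.00198).

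Tgfbr1 lay at 2075, 1862 and 2398 in C3aRKO and at 1631, 1581, 1579.9, 1525 and 1881 in APP-KI;C3aRKO. Replicate 5 of APP-KI;C3aRKO and replicate 2 of C3aRKO overlapped. The log2 fold change was −0.39 with all libraries (limma adjusted p = 0.246) and −0.51 without the 4 (limma adjusted p = 0.0498). Smad2 lay at 92.5, 92.5 and 86.3 against 77.7, 64.2, 65.8, 68.4 and 72.2, with no overlap and −0.37 (limma adjusted p = 0.104). Smad7 was apart too, at 329 to 359.8 in C3aRKO and 235 to 325 in APP-KI;C3aRKO, so that 3 members were lower and 0 higher in every knock-in library, against 7.34% and 6.34% of all genes. Ski, Skil, Nrros and Tgfb1 did not pass under either choice of libraries.

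Border macrophage markers summed to 395 to 603 in C3aRKO and 199.6 to 360.4 in APP-KI;C3aRKO, and microglial markers to 14810.4 to 26881 and 8477 to 24036. The lowest microglial sum belongs to APP-KI;C3aRKO replicate 1, the library with the fewest genes detected. The endothelial markers summed to 31.1 to 52.0 and 78.5 to 258, with Flt1 at 6.97 to 14.9 and 78.2 to 249. The part of any of these in the values above was not tested.

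Set against each other, the receptor genes separated most libraries by the knock-in. The ratio of Tgfbr1 to Tgfbr2 per kb of exon lay between 2.52 and 3.59 in the 9 libraries without the App knock-in, with a median of 3.07. It lay between 1.23 and 1.58 in 9 of the 11 libraries with it, with a median of 1.36. The remaining pair, APP-KI replicate 4 at 3.40 and APP-KI;C3aRKO replicate 1 at 2.77, had reads on under 65% of genes and lay among the libraries without the knock-in. C3aRKO replicates 1 and 2, which had as few genes with reads, lay at 2.75 and 3.40. By group the ratio was 3.28 ± 0.275 in C3aR+ WT and 1.38 ± 0.129 in C3aR+ APP-KI, 2.82 ± 0.264 in WT and 2.02 ± 1.19 in APP-KI, and 3.11 ± 0.329 in C3aRKO (SD, n = 3 each), against 1.65 ± 0.639 in APP-KI;C3aRKO (SD, n = 5). The ratio was chosen after the values were seen and was not tested. It does not depend on the scaling between libraries, since both genes of a library share its scaling.

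**Figure D3:**
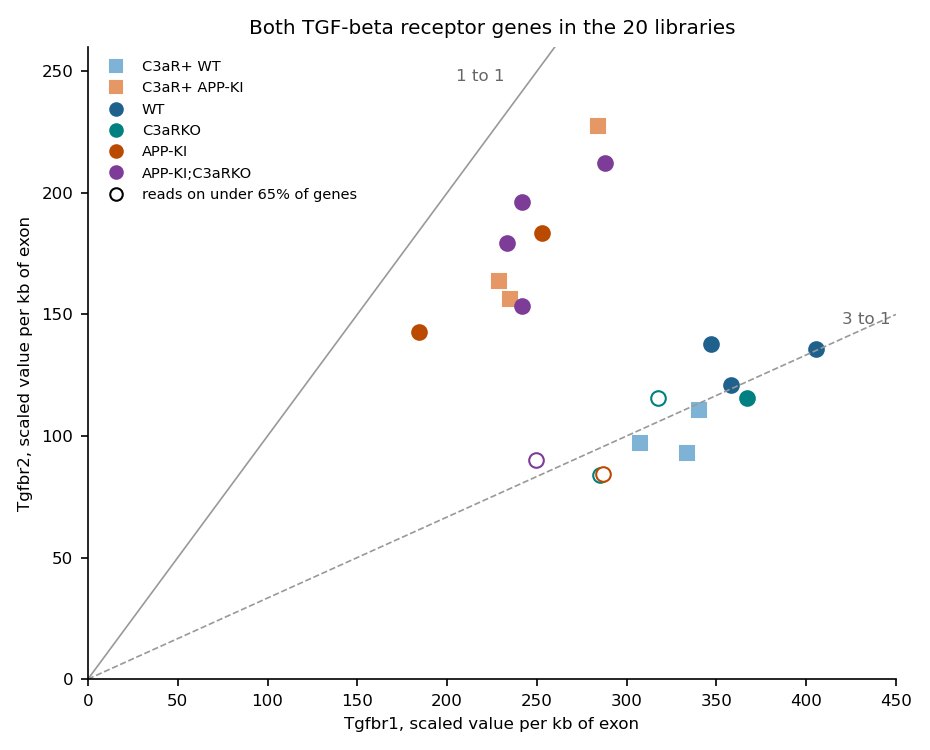
Tgfbr2 against Tgfbr1 in each library, both as scaled value per kb of exon on linear axes from 0, with squares for C3aR+ and circles for the other libraries, colours for the groups and open points for the 4 libraries with reads on under 65% of genes. The libraries without the knock-in lie near the line of 3 to 1, 9 of the 11 with it lie between that line and the line of 1 to 1, and the other two, open, lie with the former.

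The next question is whether loss of C3ar1 moved the pathway, in mice without plaques and in mice with them. No member passed in either case. In C3aRKO against WT the log2 fold changes ran from −0.39 for Tgfb1 to 0.21 for Smad3, with 95% intervals that reached from −0.999 to 0.51 over the 10 genes, and the lowest limma adjusted p was 0.995. In APP-KI;C3aRKO against APP-KI they ran from −0.17 for Smad4 to 0.21 for Smad2, with intervals from −0.66 to 0.64 and a lowest limma adjusted p of 0.998. Limma called 0 members in both, against 0.00806% of all genes in each, and again 0 without the 4 libraries, against 0.0159% and 0.00796%. With all libraries 0 had an unadjusted p under 0.05, against 2.77% and 1.19% of all genes. DESeq2 and edgeR called 0 members too. The pair of comparisons shares no library, but the first shares the WT and the second the APP-KI libraries with the comparison of APP-KI and WT.

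Tgfbr2 lay at 991, 1111 and 1128 in WT and at 945, 687 and 946 in C3aRKO, apart and lower in C3aRKO, with a log2 fold change of −0.17 (95% interval −0.71 to 0.38). It was −0.28 without the 4 libraries, which leaves 1 C3aRKO library (limma adjusted p = 0.344). Smad2, Smad3, Smad7 and Skil were higher in each C3aRKO library than in any WT library, so that 4 members were higher and 1 lower, against 9.16% and 9.31% of all genes. Their log2 fold changes were 0.17, 0.21, 0.05 and 0.16, and Smad3 lay at 316, 235 and 238 against 226, 215 and 211. None passed.

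With the knock-in, Tgfbr1 lay at 1873, 1206 and 1651 in APP-KI and at 1631, 1581, 1579.9, 1525 and 1881 in APP-KI;C3aRKO, and Tgfbr2 at 691, 1168 and 1504 and at 739, 1256, 1607, 1469 and 1737. For both genes the groups overlapped across most of their range. Smad2 was the single member apart, at 55.7 to 62.8 in APP-KI and 64.2 to 77.7 in APP-KI;C3aRKO, higher without C3ar1 by 0.21 (95% interval −0.06 to 0.48), against 0.605% of all genes apart and higher. Leaving out the 4 libraries, all 10 log2 fold changes lay between 0.04 and 0.17 and no interval reached beyond −0.13 or 0.47 (lowest limma adjusted p 0.832). The difference between both C3ar1 effects, the interaction, was not called for any member, with values from −0.15 to 0.40 and intervals from −0.87 to 1.23 (lowest limma adjusted p 0.998). Limma called 0% of all genes there, and 0 members and 1.64% of all genes had an unadjusted p under 0.05. DESeq2 called 0 members. The interaction was called for 0 members without the 4 libraries too, with values from −0.11 to 0.39 (lowest limma adjusted p 0.323).

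**Figure D4:**
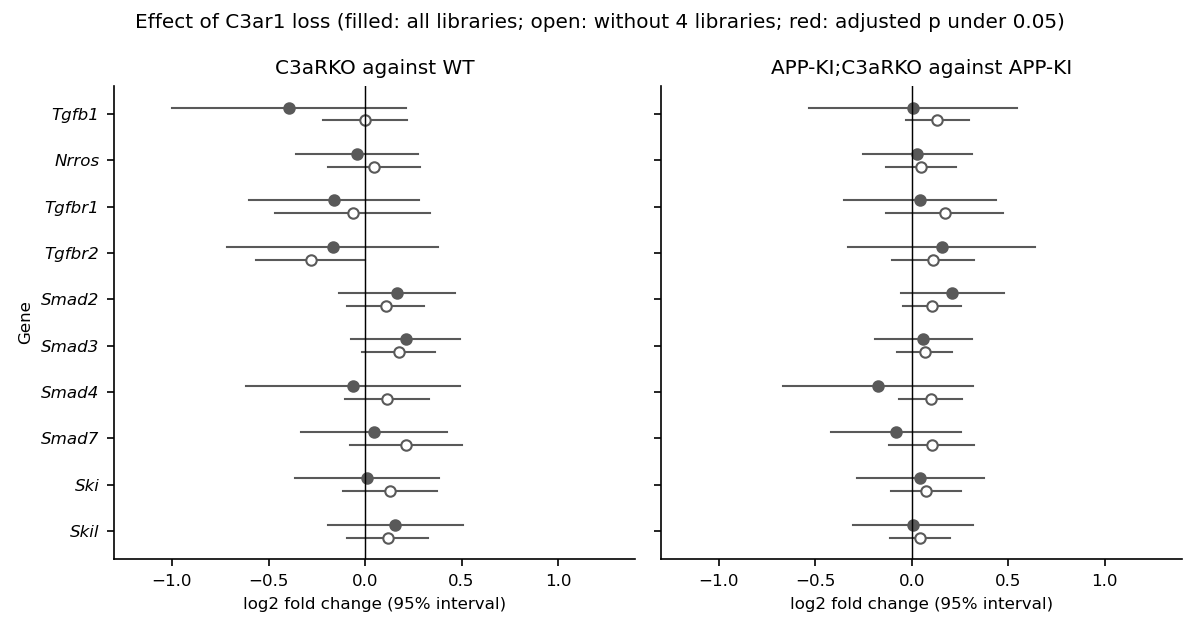
Log2 fold change of each gene with its 95% interval (horizontal axis) for loss of C3ar1 in mice without and with the App knock-in, filled for all libraries and open without the 4 libraries with reads on under 65% of genes. All intervals with all libraries include 0, and no point is red, the colour for a limma adjusted p under 0.05.

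Last, the knock-in effect and the levels were compared between C3aR+ and unselected microglia in the 12 WT and APP-KI libraries. This fit has no series term, so a difference in it need not equal that between the effects given above. Dropping the term from the fit of 14 libraries gave Tgfbr2 a log2 fold change of −0.011 in APP-KI against WT. The sort cannot be told apart from the reporter line, the library number series and the sequencing depth, and C3ar1 itself was lower in C3aR+ WT than in WT. The knock-in effect on Tgfbr2 was larger in C3aR+ microglia by 0.86 on the log2 scale (95% interval 0.11 to 1.61) and that on Nrros by 0.55 (0.05 to 1.06), and neither passed (limma adjusted p = 0.404 and 0.407). Limma called 0 members and 0% of all genes, 2 members and 11.8% of genes had an unadjusted p under 0.05, and DESeq2 called 0 members. The Tgfbr2 difference was 0.55 without the 4 libraries (limma adjusted p = 0.421). Smad3 had a difference with a 95% interval of −0.36 to 0.36 around 0. In the separate fits above its knock-in effect was −0.33 in C3aR+ and −0.38 in unselected microglia.

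In WT, Tgfb1, Nrros, Tgfbr1, Tgfbr2 and Ski were lower in each C3aR+ library than in any unselected one, 5 members against 13.2% of all genes apart and lower, with log2 differences from −0.39 (Tgfbr2) to −0.15 (Ski). None passed (limma adjusted p 0.995 for all). In APP-KI, 1 member, Smad2, was apart and higher in C3aR+, by 0.22, against 1.86% of genes, and Tgfbr2 was 0.47 higher with overlapping groups. These values were 0.17 and 0.15 without the 4 libraries (limma adjusted p = 0.79 and 0.904). Limma called no member and 0% of genes in either, and unadjusted p-values under 0.05 were found for 0 members and for 4.39% and 5.22% of genes.

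The rest of the pathway was followed in 7 lists. With all libraries, their counts stand beside 13% of all genes higher and 9.7% lower in C3aR+ microglia. The shares were 2.22% and 1.93% in unselected microglia and 3.96% and 2.97% on the C3aRKO background. Without the 4 libraries that stood apart, they were 13.2% and 14.7% in unselected microglia. Among the ligands and proteins that activate them, 12 of 22 genes had values high enough to test. In C3aR+ APP-KI, Thbs1, an activator of latent TGF-beta, stood at 175 ± 61.3 beside 56.8 ± 18.1 in C3aR+ WT (± SD, 3 libraries each). Its log2 change was 1.61 (limma adjusted p = 0.00327), and no other ligand gene passed. In unselected microglia Tgfb2 stood at 10.5 ± 1.68 in APP-KI beside 1.63 ± 0.603 in WT (± SD, 3 libraries each), and rose by 2.24 on the log2 scale (limma adjusted p = 0.0148), a call lost by edgeR (edgeR adjusted p = 0.249) and with a pseudocount of 0.1 (limma adjusted p = 0.0899). On the other background it stood at 0.697 ± 0.985 in C3aRKO and 15.3 ± 6.33 in APP-KI;C3aRKO (± SD, 3 and 5 libraries, limma adjusted p = 0.000233). In C3aR+ microglia Tgfb2 had a log2 fold change of −1.50 and did not pass (limma adjusted p = 0.204). Itgav, the integrin subunit that releases TGF-beta with Itgb8, fell by 0.58 in APP-KI against WT without the 4 libraries (limma adjusted p = 0.0014) and Ltbp3 rose by 0.71 (limma adjusted p = 0.0131).

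Of the other receptors and co-receptors, 10 of 12 were tested. Bambi, a pseudoreceptor that dampens the signal, stood at 17.0 ± 8.07 in C3aR+ APP-KI beside 1.48 ± 0.253 in C3aR+ WT (± SD, 3 libraries each), and rose by 2.77 on the log2 scale (limma adjusted p = 0.00192), while 3 receptor genes fell, Acvr2b (−0.94) and Eng (−0.93) the most. In unselected microglia no receptor gene of the list passed with all libraries, and 1 rose and 4 fell without the 4, with log2 fold changes of 1.83 for Bambi and −0.83 for Eng. On the C3aRKO background Bambi rose by 2.42 (limma adjusted p = 0.00936), but did not pass by edgeR (edgeR adjusted p = 0.224). Smad1, a transducer of the BMP branch, was the 1 of 3 other SMADs to pass and fell in all 3 comparisons, by 0.57, 0.63 and 0.74. Its call was lost under median ratio scaling in C3aR+ microglia (limma adjusted p = 0.0597), and in unselected microglia under that scaling, by edgeR, with no filter and without the series term (adjusted p from 0.0571 to 0.0869), and in 4 of 14 fits with a library left out it held. It held under these alternatives on the C3aRKO background.

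Among 25 tested regulators of receptors and SMADs, 2 rose and 3 fell in C3aR+ APP-KI, the largest being the corepressor Tgif1 (1.30) and Fkbp1a (1.16), which binds the inactive kinase of Tgfbr1, and, among those that fell, Ldlrad4 (−0.62), an inhibitor of SMAD activation. Under median ratio scaling 4 rose and 2 fell. In unselected microglia Ldlrad4 alone passed, at −0.66, and did not under that scaling, by edgeR, with no filter or without the series term (adjusted p from 0.0511 to 0.243), and did in 6 of 14 fits with a library left out. On the C3aRKO background Tgfbrap1 (−0.80), Pmepa1 (−0.78) and Ldlrad4 (−0.76) fell. Without the 4 libraries 2 rose and 9 fell in unselected microglia, beside 13.2% and 14.7% of all genes. The list's median was −0.16 on the log2 scale in C3aR+ APP-KI, beside −0.17 for all genes. All 7 genes of the branch through TAK1 and p38 were tested. Mapk14 (p38 alpha) fell in all 3 comparisons, by 0.56, 0.87 and 0.54. The last of these calls was lost under median ratio scaling, by edgeR, with no filter and without the series term (adjusted p from 0.0561 to 0.0721). Traf6 (−0.79) and Tab2 (−0.59) fell in C3aR+ APP-KI. The median of the branch was −0.56 there, beside −0.17 for all genes. Over the 3 comparisons 3, 1 and 2 genes of the branch fell and 0 rose. On the C3aRKO background Map2k6 fell beside Mapk14, by 0.87 (limma adjusted p = 0.0491). Its call held in 2 of 14 fits with a library left out. Under median ratio scaling and by edgeR 0 genes of the branch passed on that background.

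Of 8 tested genes listed as immediate targets of TGF-beta, 6 had log2 fold changes above 0 in each of the 3 comparisons. The medians were 0.81, 0.70 and 0.42 beside −0.17, −0.01 and −0.03 for all genes. The direction in which TGF-beta moves each gene of this list was not tested. In C3aR+ APP-KI 3 rose and 2 fell, and in unselected microglia 1 rose and 0 fell. Cdkn1a, an inhibitor of the cell cycle, rose by 1.74 on the log2 scale, and Klf10 and Tgfbi fell, Klf10 by 1.20. The call of Klf10 was lost under median ratio scaling, by edgeR and with no filter (adjusted p from 0.054 to 0.0824), and held in 1 of 6 fits with a library left out. On the C3aRKO background Cdkn2b and Id2 rose, by 1.88 and 0.96. Neither passed by edgeR (edgeR adjusted p = 0.416 and 0.0554) or without the 4 libraries (limma adjusted p = 0.147 and 0.121).

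The last list holds homeostatic genes that microglia keep up under TGF-beta. Of 21 tested, 9 fell and 1 rose in C3aR+ APP-KI, and the list's median was −0.52 on the log2 scale beside −0.17 for all genes. Tmem119, a marker of resting microglia, stood at 548 ± 24.3 beside 1496 ± 80.4 in C3aR+ WT (± SD, 3 libraries each). It fell by 1.45 on the log2 scale (limma adjusted p = 6.4e-05), and Adgrg1 by 1.29, while Gas6, a bridging ligand for the removal of dying cells, rose by 1.16. Under median ratio scaling 5 fell and 1 rose, and without C3aR+ WT replicate 2 the count was the same. In unselected microglia 3 fell, Slc2a5, Sall1 and Siglech, at −1.40, −0.94 and −0.70, with a median of −0.61, and 20 of the 21 lay below 0. The count that fell was 14 without the 4 libraries, where 14.7% of all genes fell. It was 6 by DESeq2, 1 without the series term and 0 with no filter. It was 0 without WT replicate 4, 5 or 6, APP-KI replicate 6 or APP-KI;C3aRKO replicate 3 or 4, 1 without APP-KI replicate 4 or APP-KI;C3aRKO replicate 5, and 8 without APP-KI;C3aRKO replicate 1. On the C3aRKO background 1 fell, Siglech, and the count was 4 by DESeq2 and 6 without APP-KI;C3aRKO replicate 2. Several of these genes also serve as microglial markers, so the marker sums given above are not independent of this list. Loss of C3ar1 called no gene of any of the 7 lists, with or without the plaques, in all libraries and without the 4. The median of the homeostatic list was then −0.17 without the knock-in and 0.09 with it.

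**Figure D5:**
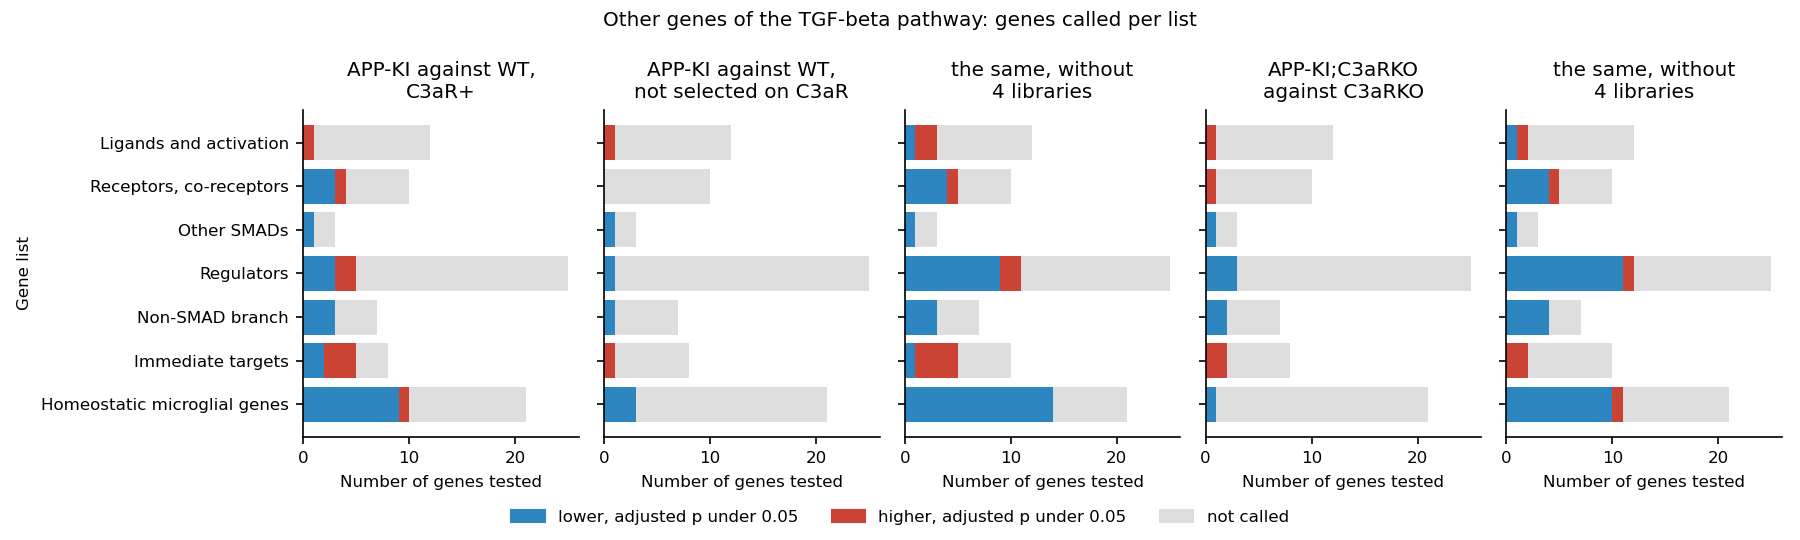
Number of genes tested in each of the 7 lists (horizontal axis), 1 panel per comparison of mice with and without the knock-in, with the part that fell in blue, the part that rose in red and the rest in grey. The homeostatic list has the most genes that fell in C3aR+ microglia, 9 of 21.

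Over the 20 libraries, after the mean of each sort was taken out, the genes most like Tgfbr1 among 10130 were Lnpep, Lifr and Hs6st1, with Pearson's r of 0.93, 0.92 and 0.92. Tgfbr2 had an r of −0.35 and Smad3 of 0.67 with Tgfbr1. For Nrros they were Gab2, Osbpl2 and Galnt7, at 0.80, 0.79 and 0.77, and Smad3 had −0.07. These are descriptions over libraries that share genotype, depth and series, with no test.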

How the data were processed

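RNA of sorted microglia was prepared with a SMARTer Total RNA Pico kit with molecular identifiers, and per the labels' processing notes reads were trimmed with cutadapt, aligned to mm10 with TopHat2 and counted with featureCounts, with DESeq2 also named. The strand setting, the annotation and the use of the identifiers are not given in the sources used here. The deposited values are a signal that the authors named FPKM: the gene's reads over the upper quartile of its library's reads. Whole reads were recovered for 100% of values (tolerance 0.02), and 1 constant, the same in each library, then multiplied them. Because the values were neither raw counts nor true FPKM, the log-scale test was kept as the test reported and count tests were alternatives.

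Tests ran in limma 3.58.1 (R 4.3.3) on log2(scaled value + 1), with its trend option, over the genes whose scaled values averaged 1 or more. P-values were adjusted over these genes by the method of Benjamini and Hochberg, and a call is an adjusted p under 0.05. A fold change on this scale understates that of low genes. The 6 C3aR+ libraries, the 14 others (with the library number series, read from the file names, as a term) and the 12 WT and APP-KI libraries were fitted apart. The alternatives tried were median ratio scaling, a pseudocount of 0.1, the filter dropped or set to a mean of 5, edgeR 4.0.16 and DESeq2 1.42.0 on the recovered reads, a replicate block, the series term added or dropped, each library left out in turn and, added after the data were seen, the 4 libraries with reads on under 65% of genes left out. The procedure was also run on simulated reads with the same spread in every library, no series effect and no library with few genes detected. That simulation cannot show how the test behaves with the libraries that stood apart. No replicates of a group held identical values (25 pairs), and none differed by less than counting noise (lowest chi-square per degree of freedom 21.7).

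The members and the lists were chosen with earlier results of these data known. Named are the 10 members and, of each other list and comparison, up to 3 genes with the largest absolute log2 fold change among those called, the 3 genes most like Tgfbr1 and Nrros, and C3ar1. Genes named beyond that rule (Tgfbi, and Tgfb2 where it did not pass) were chosen after their values were seen. Results of 1 gene of the lists are not reported here. Positions are from GENCODE M21 and promoters from RefSeq (GRCm38.p6).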

Additional observations from a re-analysis of the deposited data

Results flagged for a closer look

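In APP-KI;C3aRKO, the only group large enough to look for a sample far from the others, replicate 1 lay apart in 4 of the 10 members, where chance marks about 1 in 20 such groups. Tgfb1 lay at a scaled value of 266 in that library and at 469 to 541 in the other 4. Smad4, the shared SMAD, lay at 35.7 there and at 64.98 to 75.1 in the others, and the corepressor Ski at 553 against 802 to 856. Skil, the related corepressor, went the other way, with 608 there against 449 to 465. The same library had reads on 58.1% of genes, the lowest share of the 20, and its microglial markers summed to 8477 against 20206 to 24036 in the other 4. The part of either in these values was not tested. Comparisons that hold this library are given above with all libraries and without the 4 with few genes detected. Without this library alone, of the members only Tgfbr2 is given a log2 fold change there. With and without it, the APP-KI;C3aRKO means were 468 and 519 for Tgfb1 and 63.0 and 69.8 for Smad4. They were 776 and 831 for Ski and 486 and 455 for Skil. The C3aRKO means of these genes, in the same order, were 389, 76.5, 879 and 574.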

How the results depend on the processing

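Over all alternatives, no member was called for loss of C3ar1, for either interaction or between the sorts, Tgfbr2 was called in C3aR+ APP-KI against WT in each, and Smad3 in APP-KI;C3aRKO against C3aRKO in each but the replicate block. In C3aR+ microglia 2 members were called in place of 1 with no filter, with a filter at a mean of 5 and by DESeq2, and 1 to 2 when a library was left out. In APP-KI against WT the count of 0 became 1 by DESeq2 and 5 without the 4 libraries with few genes detected. In APP-KI;C3aRKO against C3aRKO the count of 1 became 0 with the replicate block, 6 without the 4 libraries and 1 to 3 when a library was left out, 3 without APP-KI;C3aRKO replicate 1. The cause of each was not tested, other than by the samples left out.

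Over all genes, the replicate block gave 111 calls in place of 514 for APP-KI against WT and 243 in place of 860 for APP-KI;C3aRKO against C3aRKO, and leaving out the 4 libraries gave 3510 and 3936. Leaving out a library gave 218 to 837 and 614 to 1397, and 1777 to 2528 in place of 2797 for the C3aR+ libraries. C3aRKO against WT had 1 call, 9 by DESeq2 and up to 21 when a library was left out, and the interaction of sort and knock-in 0, and 120 by DESeq2. Median ratio scaling raised the share of higher calls from 53.5% to 60.3% in APP-KI against WT and from 57.1% to 66.1% on the C3aRKO background. Replicate numbers are shared between groups but are not known to pair the libraries. Correlations of same-numbered libraries were −0.01 to 0.04 in C3aR+, 0.09 to 0.25 in WT and APP-KI and 0.00 to 0.22 on the C3aRKO background. Those of libraries with different numbers were, in the same order, −0.05 to 0.02, −0.22 to 0.20 and −0.24 to 0.24. The block could not be fitted for the levels by sort.

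Small log2 fold changes, none of them called, changed sign. In C3aR+ microglia these were Smad2 (0.022 by median ratio scaling, 0.0159 by DESeq2), Ski (0.044, by DESeq2 0.035, by edgeR 0.00837) and Skil (0.032, by DESeq2 0.023). In APP-KI against WT the block gave Nrros 0.014, Tgfbr2 −0.015, Smad7 0.00787 and Skil 0.035, and dropping the series term gave Tgfbr2 −0.011. On the C3aRKO background Tgfb1 turned to −0.037 without the 4 libraries, and Nrros to 0.037 by median ratio scaling, 0.041 by DESeq2, 0.031 by edgeR, 0.0053 with the block and 0.0028 without the series term. With the block, Tgfbr2 in C3aRKO against WT was 0.29, and in APP-KI;C3aRKO against APP-KI Tgfbr1 was −0.23 and Smad3 −0.033.

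With a library left out, Tgfb1 ran from −0.36 to 0.39 in C3aR+ microglia, from −0.28 to 0.055 in APP-KI against WT and from −0.14 to 0.43 on the C3aRKO background. In APP-KI against WT Nrros ran from −0.17 to 0.0011, Smad7 from −0.29 to 0.038 and Skil from −0.20 to 0.081, and on the C3aRKO background Nrros from −0.10 to 0.065. Tgfbr2 ran from −0.32 to 0.0050 in C3aRKO against WT and from −0.065 to 0.34 in APP-KI;C3aRKO against APP-KI, where Tgfbr1 ran from −0.11 to 0.20. The difference of the knock-in effect on Smad3 between the sorts ran from −0.070 to 0.10.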

Other observations

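Genes that warm dissociation of tissue is known to induce were followed as 1 more list of 13. In C3aR+ APP-KI against C3aR+ WT 3 rose and 3 fell, beside 13% and 9.7% of all genes. The list's median log2 fold change was −0.46 beside −0.17 for all genes. Ccl3 and Ccl4, chemokine genes that reactive microglia also express, rose by 2.76 and 2.00, and the stress factor Atf3 by 1.85. Each of the 3 that fell changed by less than these. In unselected microglia Ccl3 and Ccl4 rose by 2.64 and 1.76 with the knock-in and no gene of the list fell, and on the C3aRKO background by 2.97 and 1.66. Of all genes 2.22% rose and 1.93% fell in unselected microglia, and 3.96% and 2.97% on the C3aRKO background. Over the whole list the summed scaled values overlapped, at 3436 to 4831 in C3aR+ WT and 3269 to 4189 in C3aR+ APP-KI. They lay at 2682 to 4253 in WT and 2828 to 7199.5 in APP-KI. The other ranges were 3316 to 3748 in C3aRKO and 2215 to 6224 in APP-KI;C3aRKO. The highest sums, 7199.5 and 6224, belong to APP-KI replicate 4 and APP-KI;C3aRKO replicate 1. Both had few genes detected and a receptor ratio among the libraries without the knock-in. C3aRKO replicates 1 and 2, also with few genes detected, had 3394 and 3748. The part of these sums in the values of the members was not tested.

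Among markers of other cells, monocytes and neutrophils summed to 29.0 to 704 per library over all groups with no call in either comparison of APP-KI and WT with all libraries, while Ccr2 of that list fell by 1.43 on the C3aRKO background (limma adjusted p = 0.0478). Neuronal markers summed to at most 11.98 and markers of T and NK cells to at most 11.96 in any library. Astrocyte markers summed to 285 to 341 in C3aR+ WT and 215 to 234 in C3aR+ APP-KI, where Gfap rose and Slc1a3 fell. Oligodendrocyte markers summed to 21.6 to 78.5 over all groups.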
